A study of Homo sapiens with 6 samples.

Results

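The genes described here are 7 ligands through which tissue cells are held, restrained or recognised by immune cells: the adhesion molecules ICAM1 and VCAM1, the checkpoint ligands CD274 (PD-L1), PDCD1LG2 (PD-L2) and CD276 (B7-H3), and the recognition ligands CD47 and CD58. They were picked by symbol out of the 38900 gene rows of the deposited table, as a family in which ICAM1 and CD274 were already known to differ strongly between the groups. The contrast of CA4 with DMSO that chose them is therefore given below as a description. The calls of a fit over all genes are printed for these 7 only as a count beside the share of all genes called, and support nothing. All 7 were found, each under 1 Ensembl ID. The study sequenced polyA RNA of hTERT RPE1, a human retinal pigment epithelial line that an added telomerase gene keeps dividing. Cultures stood at 100% confluency for 5 days to reach quiescence. They were then exposed for 6 hours to 0.1% DMSO, the solvent (3 libraries), or to 100 nM combretastatin A4, called CA4 (3 libraries). CA4 binds tubulin at the colchicine site and depolymerises microtubules. Both groups share the line, its telomerase gene and the confluent arrest, and a single line limits what they can represent. The labels number the libraries 1 to 3 in each group but do not say whether they came from separate cultures, so the errors measure the spread between these libraries, which may be technical. In RNA of whole cultures, fewer or more expressing cells and less or more RNA per cell cannot be told apart.

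ICAM1 and VCAM1 are immunoglobulin family proteins that bind integrins of leukocytes, LFA-1 and Mac-1 for ICAM1 and VLA-4 for VCAM1, and are textbook targets of NF-kB in cells exposed to TNF or interleukin 1. CD274 and PDCD1LG2 are neighbouring B7 family genes whose products bind PD-1 and restrain T cells. CD274 is known to answer to interferon gamma through IRF1, and also to NF-kB and AP-1. CD276 is a further B7 family protein. CD47 binds SIRPA on macrophages and holds back phagocytosis, while CD58 binds CD2 on T and natural killer cells and strengthens their contact. The retinal pigment epithelium forms the outer blood-retina barrier, and ICAM1 is a known surface molecule of its cells in inflammation.

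The bases before the start sites show what these genes carry next to their starts. RefSeq's promoters (GRCh38.p14) had an entry for 6 of the 7 genes and none for PDCD1LG2. The 250 bases before the start are printed for ICAM1 and CD274, which differed most, and for VCAM1, the classical partner of ICAM1, whose groups overlapped. They are written 5′ to 3′ on the plus strand, the strand of all 3 genes, from chr19:10270870-10271119, chr9:5450292-5450541 and chr1:100719492-100719741. Capitals mark matches on either strand to 6 motifs. These are 2 kappaB-like motifs (GGG, any 5 bases, then CC, and the palindrome GGAANTTCC), the gamma-activated site TTCNNNGAA bound by STAT proteins, the interferon response motif (GAAA, any 2 bases, then GAAA) bound by IRF proteins, the AP-1 site TGANTCA and the TATA box TATAAA. Overlapping matches run together in 1 block of capitals.
ICAM1: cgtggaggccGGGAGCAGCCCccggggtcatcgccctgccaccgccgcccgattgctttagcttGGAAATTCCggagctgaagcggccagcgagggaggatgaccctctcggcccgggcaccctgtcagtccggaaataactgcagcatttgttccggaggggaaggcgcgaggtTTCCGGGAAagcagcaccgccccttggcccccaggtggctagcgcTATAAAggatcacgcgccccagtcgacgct
CD274: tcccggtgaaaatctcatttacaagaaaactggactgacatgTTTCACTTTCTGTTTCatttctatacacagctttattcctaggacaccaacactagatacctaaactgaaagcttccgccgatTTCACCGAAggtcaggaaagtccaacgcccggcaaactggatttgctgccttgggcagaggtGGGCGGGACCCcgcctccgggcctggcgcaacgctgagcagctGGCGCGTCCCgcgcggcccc
VCAM1: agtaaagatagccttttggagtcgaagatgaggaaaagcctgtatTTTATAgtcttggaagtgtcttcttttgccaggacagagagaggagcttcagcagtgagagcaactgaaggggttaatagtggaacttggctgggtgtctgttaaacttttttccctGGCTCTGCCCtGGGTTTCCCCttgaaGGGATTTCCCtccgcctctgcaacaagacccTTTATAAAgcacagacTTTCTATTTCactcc

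The ICAM1 stretch held GGAAATTCC from 186 to 178 bases before the start, the gamma-activated match TTCCGGGAA from 75 to 67 and a TATA box from 30 to 25. GGAANTTCC was in 0.826% of the 35116 promoter stretches of this length, the gamma-activated motif in 6.57% and the TATA box in 10.7%. CD274 held no TATA box match. It had 2 overlapping interferon response matches on the minus strand, between 208 and 193 bases before the start, a motif found in 3.02% of all stretches, and 1 gamma-activated match, TTCACCGAA, from 125 to 117. VCAM1 held the kappaB-like matches GGGTTTCCCC from 77 to 68 and GGGATTTCCC from 62 to 53, a further one on the minus strand from 88 to 79, and an interferon response match from 15 to 6. The looser kappaB-like motif also matched in ICAM1 (2 overlapping matches), in CD274 (3 matches, between 63 and 11 bases before the start) and in the stretches of CD276, CD47 and CD58, and was in 54.4% of all stretches. The AP-1 site was in none of the 3 printed stretches and in 6.57% of all. A match describes letters and says nothing on whether a factor was bound. In GENCODE 29 the ICAM1 model begins before RefSeq's start, and 22% of its exon bases overlap AC011511.5, a gene on the other strand. The deposited counts have no row for that gene. Whether strand was used in counting is not given in the sources used here, so reads over the shared bases cannot be assigned to either gene.

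The recovered depth was 19524936 to 22538004 reads per library. Levels below are the authors' normalized counts, reads divided by 1 size factor per library. Among the markers of the retinal pigment epithelium the transcription factors MITF, OTX2 and PAX6 were read at 226 to 1357, while genes of the mature tissue were low, RPE65 at 13.5 to 40.8 and TYR at 0 to 2.90. Of 7 tested markers 2 fell, OTX2 by 1.11 in log2 (limma adjusted p = 0.0158, SE 0.16) and PAX6 by 0.74 (limma adjusted p = 0.0483, SE 0.16), both named after their values were seen. The 10 markers summed to 2192 to 3207 in DMSO and 1252 to 1929 in CA4. Of 14 leukocyte markers, 6 had no read in any library, CD3E, CD8A and NKG7 among them, which allows up to 3 reads each per library, and PTPRC (CD45) lay between 2.80 and 10.6. Others were present: CD68, a lysosomal protein that is not restricted to leukocytes, lay between 499.7 and 921, CSF1R between 81.4 and 184 and LYZ between 15.9 and 32.3. The list summed to 849.9 to 1050 in DMSO and 691 to 856 in CA4, and of its 3 tested genes 0 passed in limma, with 0 at an unadjusted p under 0.05. Endothelial cells also carry ICAM1 and VCAM1, and the 6 endothelial markers summed to 1162 to 1695 in DMSO and to 1885, 1502 and 3562 in CA4 replicates 1, 2 and 3. The part of the retinal pigment epithelium, leukocyte and endothelial markers in the results was not tested.

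ICAM1 (ENSG00000090339, GRCh38 chr19:10270835-10286615), the ligand of LFA-1, had 403, 137 and 124 normalized counts in the DMSO libraries 1, 2 and 3 and 1551, 696 and 933 in the CA4 libraries. Each CA4 library lay above each DMSO library, and replicate 1 was the highest in both groups. The lowest CA4 value was 1.73 times the highest DMSO value. The means were 222 ± 157 and 1060 ± 442 (n = 3 each, SD). The difference of log2(normalized count + 1), the log2 fold change, called the log2 difference from here on, was 2.39 with a limma standard error (SE) of 0.47. By this measure ICAM1 held place 44 of the 13928 tested genes.

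VCAM1 (ENSG00000162692, chr1:100719742-100739045), the ligand of VLA-4, had 114, 70.1 and 78.8 in DMSO and 103, 110.0 and 134 with CA4. The groups overlapped, since DMSO replicate 1 lay above CA4 replicates 1 and 2. The means were 87.6 ± 23.2 and 116 ± 16.0 (n = 3 each, SD) and the log2 difference was 0.42 (SE 0.24). With 75 to 120 reads per library VCAM1 was the least read of the 7 genes.

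CD274 (ENSG00000120217, chr9:5450503-5470566), the gene of PD-L1, had 536, 213 and 291 in DMSO and 2537, 1250 and 1565 in CA4. Its groups did not overlap, the lowest CA4 value being 2.33 times the highest DMSO value, and replicate 1 was again the highest on both sides. The means were 347 ± 169 and 1784 ± 671 (n = 3 each, SD), the log2 difference was 2.40 (SE 0.37) and the place 41.

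PDCD1LG2 (ENSG00000197646, chr9:5510570-5571254), the gene of PD-L2, had 815, 405 and 391 in DMSO and 1718, 1227 and 1398 in CA4. Its groups were apart as well, by 1.51 times between the nearest libraries, and replicate 1 was the highest of each. From means of 537 ± 241 and 1448 ± 249 (n = 3 each, SD) the log2 difference was 1.50 (SE 0.28), place 154.

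CD276 (ENSG00000103855, chr15:73683966-73714518), the remaining B7 ligand, had 3857, 4199 and 3976 in DMSO and 3929, 4195 and 4015 in CA4. Its groups overlapped, with replicate 2 the highest of both. The log2 difference was 0.01 (SE 0.07), and its sign turned under scaling to the same total (-0.09), quantile normalization (-0.10) and 75th percentile scaling (-0.02), without DMSO replicate 1 and without CA4 replicate 2 (-0.01 in each).

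CD47 (ENSG00000196776, chr3:108043094-108091862, minus strand), the ligand of SIRPA, had 1304, 1154 and 1134 in DMSO and 1355, 1156 and 1047 with CA4. The groups overlapped, and CA4 held both the highest and the lowest library. The log2 difference was -0.02 (SE 0.12), and its sign turned without DMSO replicate 1 (0.04) and without CA4 replicate 3 (0.07). CD58 (ENSG00000116815, chr1:116514535-116571039, minus strand), the ligand of CD2, had 319, 223 and 260.2 in DMSO and 229, 209.8 and 253 in CA4. Here too the groups overlapped, with DMSO replicate 1 the highest, and the log2 difference was -0.20 (SE 0.17).

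**Figure D1:**
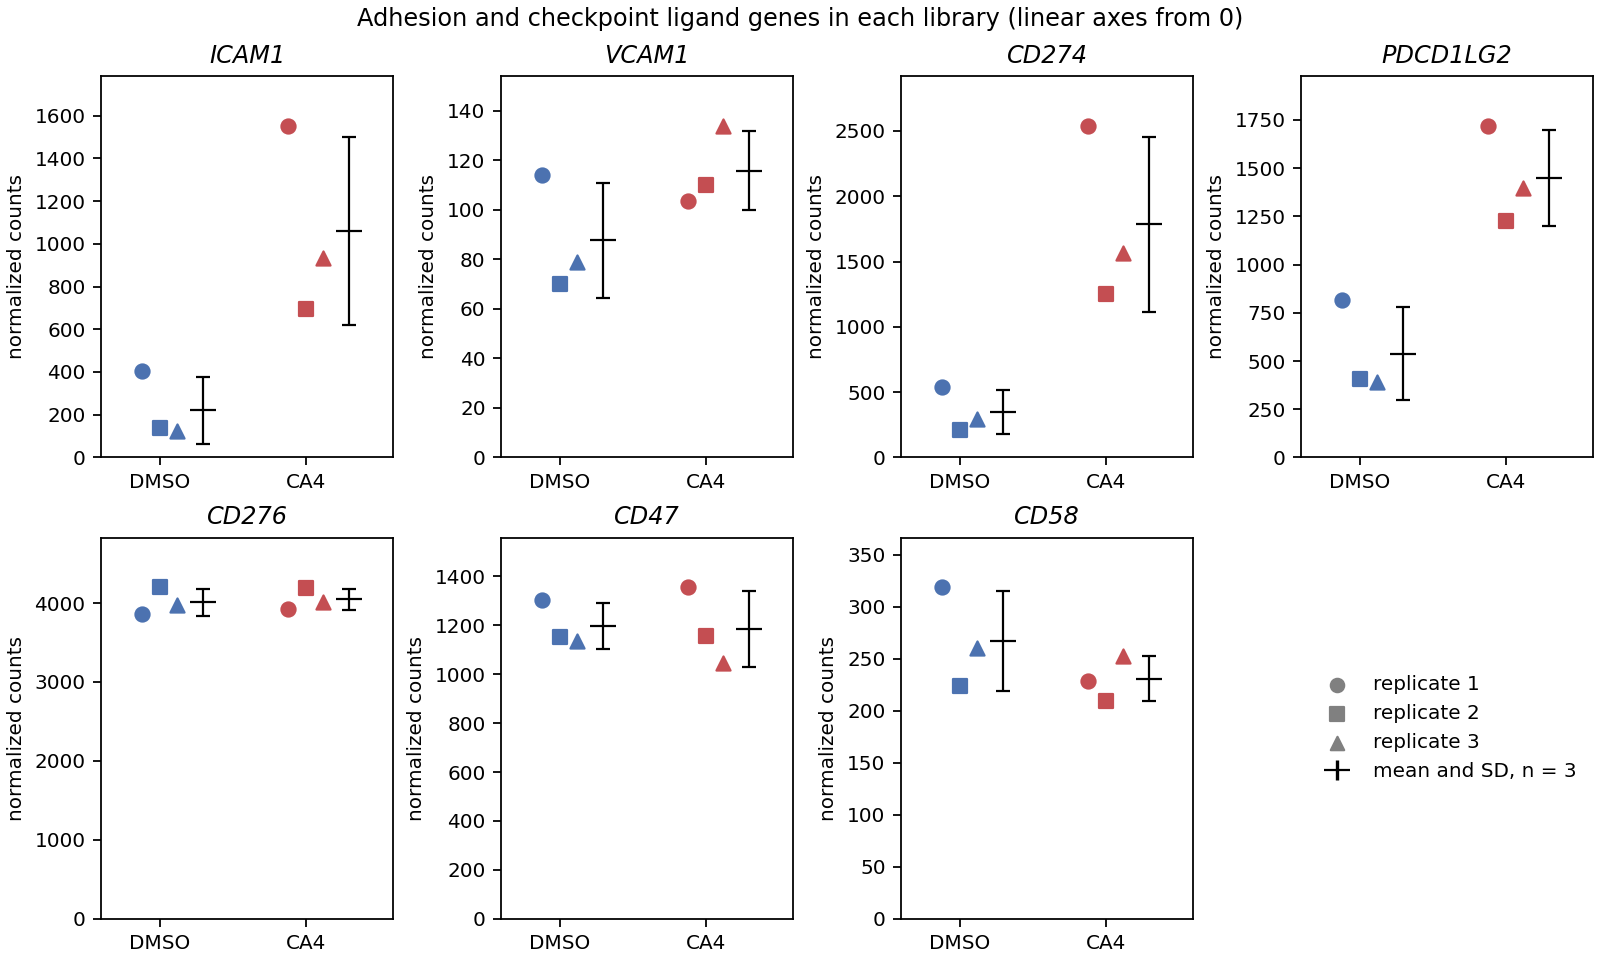
Normalized counts of the 7 ligand genes (vertical axes, linear from 0) in the 3 DMSO and 3 CA4 libraries, 1 panel per gene; points are libraries, their shape is the replicate number, and black bars give the mean with its SD (n = 3). ICAM1, CD274 and PDCD1LG2 have their CA4 libraries above their DMSO libraries, while the other 4 genes overlap.

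So 3 of the 7 genes (ICAM1, CD274 and PDCD1LG2) had groups that did not overlap, CA4 being higher. Among all tested genes, CA4 lay entirely above DMSO in 14.3%, entirely below in 13.4%, and either in 27.7%. limma, fitted over all tested genes, called the same 3 genes higher at an adjusted p under 0.05, where it called 2.97% of all tested genes higher, 1.97% lower and 4.94% in either direction. Nothing is read from these counts, since the family was chosen for its leading genes. The median log2 difference was 0.42 over the 7 genes and -0.0082 over all tested genes. This count moved with single libraries. limma called 0 of the 7 without DMSO replicate 2, DMSO replicate 3, CA4 replicate 1 or CA4 replicate 3, 1 (CD274) without CA4 replicate 2, and 3 without DMSO replicate 1. Without DMSO replicate 1 the log2 differences of ICAM1, CD274 and PDCD1LG2 were 2.93, 2.77 and 1.85, and without CA4 replicate 1 they were 2.08, 2.12 and 1.37.

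To set levels of different genes side by side, normalized counts were divided by the kb of exon that each gene has in GENCODE 29. On this scale CD276 was the highest of the 7 in DMSO, at 724 ± 31.3. PDCD1LG2 followed at 227 ± 102, CD58 at 150.0 ± 26.9, CD47 at 146 ± 11.3, CD274 at 84.4 ± 41.0, ICAM1 at 59.8 ± 42.4 and VCAM1 at 14.5 ± 3.84 (n = 3 each, SD). In that order the libraries of CD276 were apart from those of PDCD1LG2, those of CD47 from CD274 and those of ICAM1 from VCAM1, and the other neighbours overlapped. In CA4 the levels were 730.1 ± 24.5 for CD276, 612 ± 105 for PDCD1LG2, 434 ± 163 for CD274, 286 ± 119 for ICAM1, 144 ± 19.0 for CD47, 129 ± 12.1 for CD58 and 19.1 ± 2.64 for VCAM1 (n = 3 each, SD). There the first 4 genes formed a chain in which each overlapped the next, ICAM1 was apart from CD47, and VCAM1 was again last and apart. By their means CD274 and ICAM1 thus stood below CD47 and CD58 in DMSO, where the highest CD274 library (130.5) overlapped the lowest CD58 library (125.3), and in CA4 every library of both stood above those of CD47 and CD58. The exons of all annotated transcripts together can be longer than the transcript a cell makes, so these levels are approximate.

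**Figure D2:**
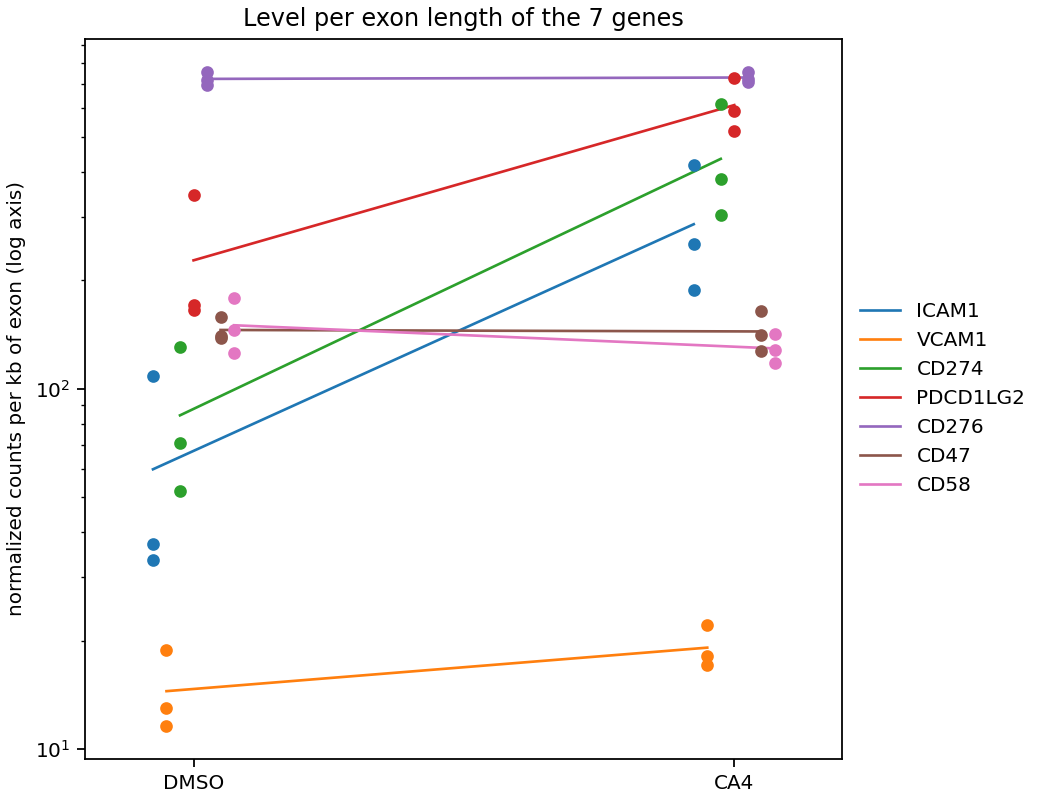
Normalized counts per kb of GENCODE 29 exon (vertical log axis) of the 7 genes in DMSO and CA4; points are libraries and lines join the group means. The means of CD274 and ICAM1 pass from below those of CD47 and CD58 in DMSO to above them in CA4.

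Several of the 7 genes shared their spread inside the groups. Relative to the mean of its group on the log2 scale, DMSO replicate 1 deviated by 1.08 for ICAM1, 0.74 for CD274 and 0.69 for PDCD1LG2, and CA4 replicate 1 by 0.63, 0.57 and 0.26. Replicates 2 and 3 lay below their group means for these genes in both groups. With group means removed, the Pearson correlation over the 6 libraries was 0.985 between ICAM1 and PDCD1LG2, 0.938 between ICAM1 and CD274 and 0.912 between CD274 and PDCD1LG2. Among the genes with overlapping groups, VCAM1 and CD58 correlated at 0.929, but VCAM1 and CD47 at 0.050 and CD47 and CD58 at 0.213. CD47 and CD58 correlated with ICAM1, CD274 and PDCD1LG2 at 0.698 to 0.787, and CD47 was also highest in replicate 1 of both groups (0.13 and 0.20). High correlations were common outside the family. Of 11688 genes averaging 50 or more normalized counts, 771 (6.60%) reached 0.9 with ICAM1, and PDCD1LG2 held place 89 and CD274 place 441 among the 11688. The points share their libraries, and so any difference in culture or depth between these. CD276 ran the other way inside the groups, at -0.932 with CD274, with deviations no larger than 0.067.

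**Figure D3:**
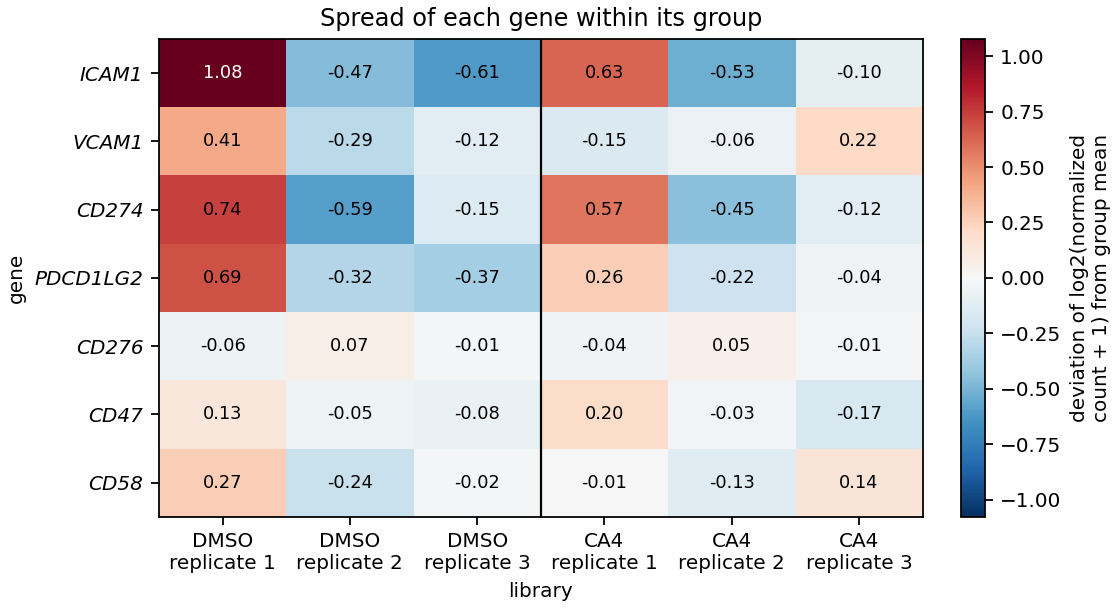
Deviation of log2(normalized count + 1) from the mean of its own group, for the 7 genes (rows) in the 6 libraries (columns), with the value printed in each cell. ICAM1, CD274 and PDCD1LG2 are highest in replicate 1 of both groups, with 1.08 for ICAM1 in DMSO.

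Over the 6 libraries, treatment included, PDCD1LG2 was the 8th of 11688 genes in likeness to ICAM1, with a Pearson correlation of 0.996 on the log2 scale, and CD274 held place 89 with 0.984. VCAM1 held place 1691 (0.804), and CD276, CD47 and CD58 had correlations between -0.241 and 0.289. The 6 genes closest to ICAM1 were TRA2B, a splicing factor, NUS1, which acts in dolichol synthesis, MT2A, a metallothionein, METTL1, an RNA methyltransferase, RPL36AL, a ribosomal protein, and SLC35C1, the Golgi transporter of GDP-fucose, with correlations of 0.997 to 0.998. They shared the shape of the ICAM1 pattern and not its size, their log2 differences running from 0.25 (RPL36AL) to 0.79 (METTL1). The 6 closest to CD274 were SERP1 and SRP68, of the route into the endoplasmic reticulum, INPP1, an inositol phosphatase, PVR, an immune ligand described below, NANS, an enzyme of sialic acid synthesis, and ENSG00000225989, which has no symbol in the tables used. Their correlations were 0.996 to 0.999 and their log2 differences 0.24 to 1.25. This choice of genes depended on the scaling and on the libraries. Scaling to the same total found again 2 of the 6 for ICAM1 and 3 of the 6 for CD274. Leaving out 1 library found again 0 to 3 of the 6 for ICAM1, with 0 without DMSO replicate 2 or CA4 replicate 1, and 1 to 4 of the 6 for CD274.

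On chromosome 9, CD274 and PDCD1LG2 lie 60.1 kb apart, start to start, on the same strand. The other genes tested within 250 kb of the CD274 start were PLGRKT, a plasminogen receptor gene 12.6 kb before it, and RIC1, 179 kb after it. PLGRKT was at 169.6 ± 29.1 in DMSO against 170.1 ± 14.1 in CA4 (n = 3 each, SD), a log2 difference of 0.01 (limma adjusted p = 0.974, SE 0.17). RIC1 had a log2 difference of 0.29 (limma adjusted p = 0.183, SE 0.11). Around ICAM1 on chromosome 19, 1 of 18 other tested genes passed and the median log2 difference was 0.22. It was P2RY11, a purine receptor gene, higher in CA4 by 0.97 in log2 (limma adjusted p = 0.0452, SE 0.21). P2RY11 shares exons with the readthrough gene PPAN-P2RY11, so its count is uncertain. The nearest family members were ICAM4, 16.1 kb from ICAM1 and read at 0 to 2.24 normalized counts, and ICAM5, best known from neurons, 19.1 kb away. ICAM5 had 9.66, 13.1 and 5.70 in DMSO and 27.1, 33.7 and 30.1 in CA4. Its groups did not overlap, but the log2 difference of 1.64 did not pass (limma adjusted p = 0.0655, SE 0.41).

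**Figure D4:**
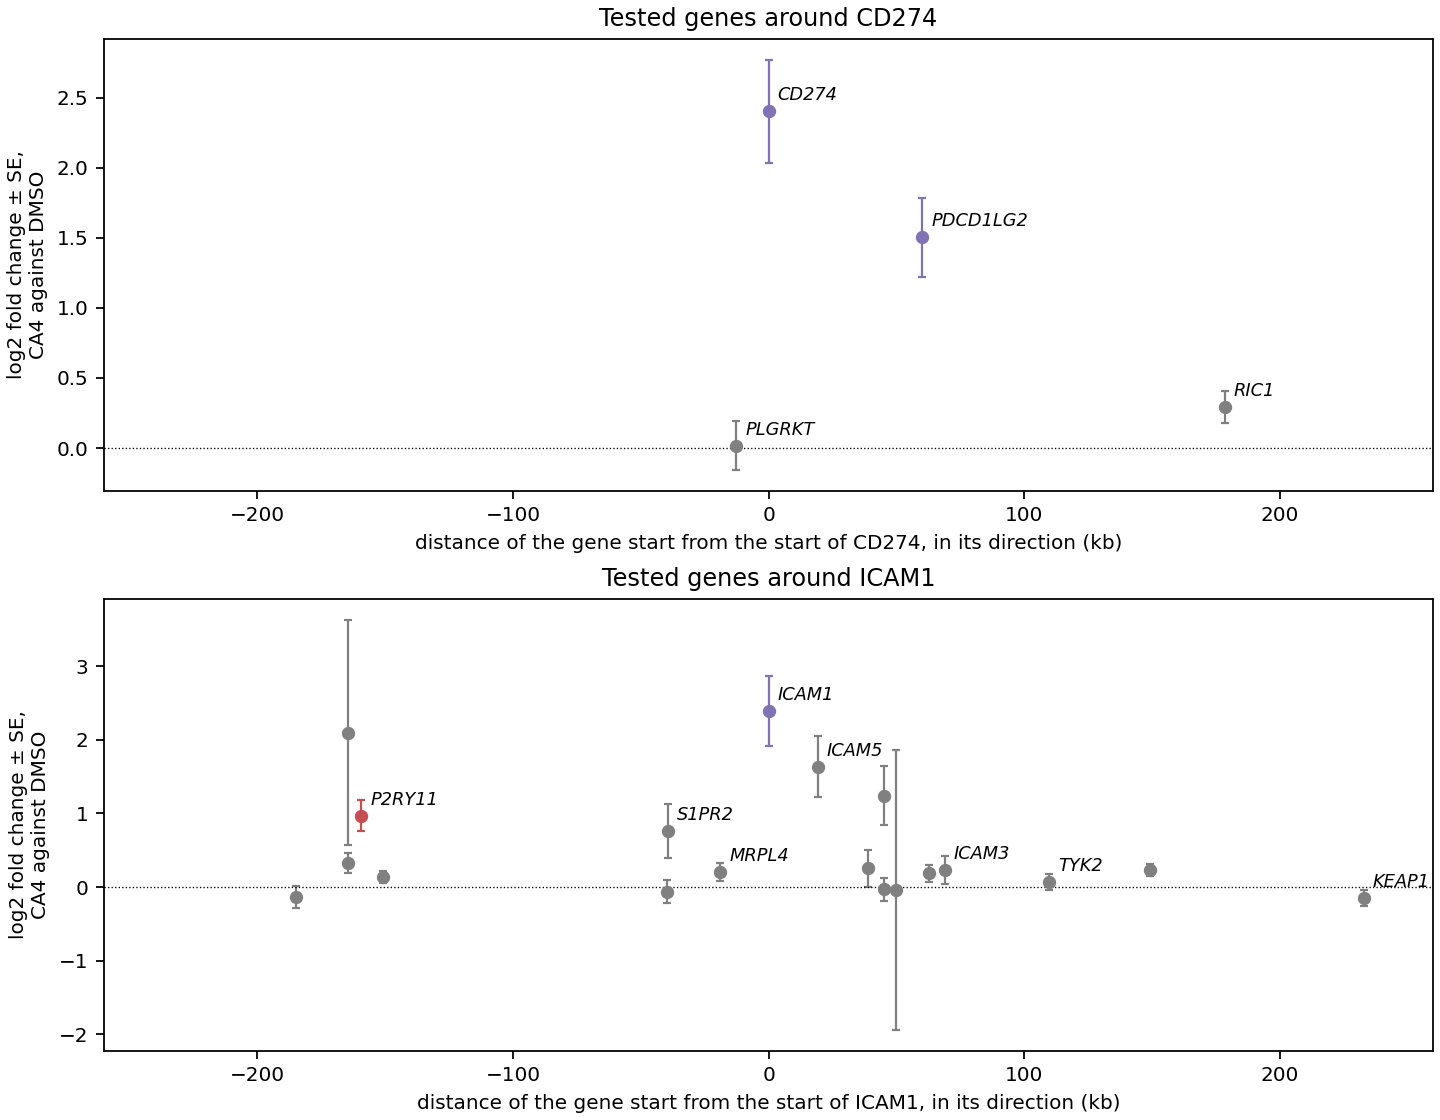
Log2 difference with its standard error (vertical axis) of tested genes within 250 kb of CD274 and of ICAM1, against the distance of their starts in kb (horizontal axis). Around CD274, PLGRKT lies at 0.01 and RIC1 at 0.29 beside CD274 at 2.40 and PDCD1LG2 at 1.50.

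Genes that surround these ligands in function were set down in 12 lists of 199 genes, of which 161 were tested. limma called 15 of them higher and 5 lower, 12.4% in all, against 4.94% of all tested genes. The lists were drawn up with earlier results of these data known, so this share is a description. Counts at an unadjusted limma p under 0.05 are given below where no gene passed. Over all tested genes that count was 3197 of 13928 (23.0%), which is the share to hold them against. List medians near 0 can change sign with the setting. Over the fits that leave out a library, the median of adhesion genes ran from -0.14 to 0.01 (above 0 without DMSO replicate 1 or CA4 replicate 1), of the TNF family from -0.22 to 0.37 (below 0 without DMSO replicate 2 or CA4 replicate 3) and of class I genes from -0.14 to 0.00616 (above 0 without DMSO replicate 2). Among genes averaging 50 or more, the median was -0.32 for the TNF family and -0.08 for the other B7 and checkpoint ligands.

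Other leukocyte adhesion genes gave no call. Of 15 tested of 20, 0 passed in limma and 0 in edgeR, 1 passed in DESeq2, 3 had an unadjusted limma p under 0.05, and the median log2 difference was -0.08. The smallest p-values belonged to ICAM5, given above, and to THY1, a glycoprotein that binds leukocyte integrins, at 8679 ± 498 in DMSO against 7493 ± 498 in CA4 (n = 3 each, SD), a log2 difference of -0.21 (limma adjusted p = 0.183, SE 0.08).

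Among 20 tested of 23 other B7 and checkpoint ligand genes, 1 rose and 1 fell, with a median of 0.11. edgeR called 1 gene of this list and DESeq2 7, as did limma with the replicate block. PVR, the poliovirus receptor, which engages TIGIT and CD226 on T and natural killer cells, had 3773, 2492 and 2785 in DMSO and 9332, 5904 and 6453 in CA4. Each CA4 library was above each DMSO library and replicate 1 was the highest of both groups, as in CD274. PVR rose by 1.25 in log2 (limma adjusted p = 0.0207, SE 0.21). NECTIN3, an adhesion protein related to it, had 1504, 1438 and 1936 in DMSO and 1136, 778 and 944 in CA4, again without overlap. It fell by 0.78 in log2 (limma adjusted p = 0.0452, SE 0.17). PVR lost its call without DMSO replicate 2, DMSO replicate 3, CA4 replicate 1 or CA4 replicate 3 (limma adjusted p up to 0.0922), and NECTIN3 whichever library was left out (0.0534 to 0.146). CD80 and CD86, the classical costimulators, had no read in any library.

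Of 8 tested TNF family genes 1 passed in limma, 0 in edgeR and 1 in DESeq2, and the median was 0.10. TNFSF9, the ligand of the T cell costimulator 4-1BB, had 130.4, 110.3 and 156 in DMSO and 75.4, 67.3 and 66.9 in CA4, with groups apart. It fell by 0.90 in log2 (limma adjusted p = 0.0471, SE 0.20), a call lost whichever library was left out (limma adjusted p 0.0709 to 0.165). The 6 tested NKG2D ligands, stress signals to natural killer cells, had a median of -0.28. Of these 0 passed in limma and 0 in edgeR, 1 passed in DESeq2 and 2 had an unadjusted limma p under 0.05. ULBP2 was at 178 ± 29.3 in DMSO against 300.2 ± 54.6 in CA4 (n = 3 each, SD), a log2 difference of 0.75 (limma adjusted p = 0.0711, SE 0.19). MICA was at 627 ± 26.5 in DMSO against 516 ± 36.5 in CA4 (n = 3 each, SD), a log2 difference of -0.28 (limma adjusted p = 0.156, SE 0.10).

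The class I list holds heavy chains, peptide loading proteins and the immunoproteasome, and 17 of its 21 genes were tested. Of these 0 passed in limma and 0 in edgeR, 1 passed in DESeq2 and 2 had an unadjusted limma p under 0.05, with a median of -0.04. NLRC5, the transactivator of class I genes, was at 431 ± 29.5 in DMSO against 597 ± 72.9 in CA4 (n = 3 each, SD), a log2 difference of 0.46 (limma adjusted p = 0.0796, SE 0.13). TAP1, a peptide transporter, had a log2 difference of 0.59 (limma adjusted p = 0.189, SE 0.24). Of 10 class II genes 2 were tested, 5 had no read in any library, and 0 passed in limma, edgeR or DESeq2, with 1 at an unadjusted limma p under 0.05. CIITA, the class II transactivator, had 103, 37.4 and 41.8 in DMSO and 92.8, 169 and 158 in CA4. Its groups overlapped through DMSO replicate 1, and the log2 difference was 1.298 (limma adjusted p = 0.123, SE 0.42). HLA-DMA, a peptide exchange protein, had -0.03 (limma adjusted p = 0.985, SE 0.63), and from -0.73 to 0.45 without 1 library.

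The interferon and STAT genes, a known route to CD274, gave 0 calls among 18 tested of 23 in limma and 0 in edgeR, with 2 in DESeq2, 4 at an unadjusted limma p under 0.05 and a median of -0.04. CXCL9 and CXCL10, chemokines typical of interferon gamma, had no read in any library. The smallest p-values belonged to genes that were lower in CA4. SOCS3, a feedback inhibitor, was at 270.1 ± 64.8 in DMSO against 144 ± 10.7 in CA4 (n = 3 each, SD), a log2 difference of -0.87 (limma adjusted p = 0.0553, SE 0.21). IRF9, an interferon regulatory factor, was at 432 ± 72.7 in DMSO against 281 ± 24.3 in CA4 (n = 3 each, SD), a log2 difference of -0.61 (limma adjusted p = 0.0641, SE 0.15). Both passed under scaling to the same total (limma adjusted p = 0.0396 and 0.0420), in DESeq2 (adjusted p = 0.00416 and 0.0120) and with the replicate block (0.0182 and 0.0167). SOCS3 also passed among genes averaging 50 or more (limma adjusted p = 0.0488) and without DMSO replicate 1 (0.0167), and over the 18 alternatives the values reached 0.181 for SOCS3 and 0.182 for IRF9. IRF1, chosen after its value was seen, had a log2 difference of -0.33 (limma adjusted p = 0.433, SE 0.23).

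In the list of TNF and interleukin 1 receptors, their adaptors and the NF-kB proteins, 4 of 23 genes rose and 0 fell, with a median of 0.15, and edgeR called 4 and DESeq2 7. TNFAIP3 (A20), a feedback inhibitor of NF-kB, had 555, 365 and 251 in DMSO and 1704, 849 and 1184 in CA4. As in ICAM1 and CD274, the groups were apart and replicate 1 was the highest of each. TNFAIP3 rose by 1.69 in log2 (limma adjusted p = 0.0340, SE 0.33). NFKB2, a subunit, rose by 1.09 (limma adjusted p = 0.0166, SE 0.16), NFKBIA, the inhibitor IkB alpha, by 0.67 (limma adjusted p = 0.0397, SE 0.14), and IKBKB, the kinase that marks it for destruction, by 0.57 (limma adjusted p = 0.0129, SE 0.08). The interleukin 1 receptor IL1R1, chosen after its value was seen, had -0.84 (limma adjusted p = 0.0898, SE 0.24). The count of 4 became 0 without DMSO replicate 2, DMSO replicate 3, CA4 replicate 1 or CA4 replicate 3, and 6 without DMSO replicate 1. Without CA4 replicate 2 it was again 4, but NFKBIA was no longer called (limma adjusted p up to 0.119 over the 6 fits).

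Of 13 AP-1 and other regulators known to act on CD274, 4 rose and 2 fell, with a median of 0.44, and edgeR called 4 and DESeq2 8. ATF3, a stress-induced factor, had 30.9, 12.2 and 26.6 in DMSO and 60.9, 92.0 and 79.1 in CA4, without overlap. ATF3 rose by 1.77 in log2 (limma adjusted p = 0.0471, SE 0.39). The AP-1 subunit gene FOSL2 rose by 0.88 (limma adjusted p = 0.0198, SE 0.14), MYC, a growth regulator, by 0.86 (limma adjusted p = 0.0487, SE 0.19), and JUNB, a further AP-1 subunit, by 0.51 (limma adjusted p = 0.0471, SE 0.11). Those that fell, chosen after their values were seen, were HIF1A, the hypoxia factor, by 0.45 (limma adjusted p = 0.0215, SE 0.08) and NFE2L2, the gene of NRF2, by 0.49 (limma adjusted p = 0.0392, SE 0.10). The count of 6 became 9 without DMSO replicate 1 and 0 without DMSO replicate 2, DMSO replicate 3, CA4 replicate 1, CA4 replicate 2 or CA4 replicate 3.

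Proteins that handle PD-L1 or CD47 gave 0 calls among 18 tested in limma and 0 in edgeR, 3 in DESeq2, with 8 at an unadjusted limma p under 0.05 and a median of -0.05. CMTM6, which keeps PD-L1 at the cell surface, was at 2751 ± 62.6 in DMSO against 2317 ± 39.6 in CA4 (n = 3 each, SD), a log2 difference of -0.25 (limma adjusted p = 0.0862, SE 0.07). ITGB3, an integrin subunit that associates with CD47, was at 233 ± 94.6 in DMSO against 545 ± 128 in CA4 (n = 3 each, SD), a log2 difference of 1.27 (limma adjusted p = 0.0541, SE 0.30).

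Among the actin linkers and signalling proteins that join ICAM1 and VCAM1 to the cytoskeleton, 5 of 17 rose and 1 fell, with a median of 0.15. TRIO, a guanine nucleotide exchange factor, had 7460, 6131 and 6340 in DMSO and 16307, 15215 and 16555 with CA4. The groups were far apart for their spread. TRIO rose by 1.27 in log2 (limma adjusted p = 0.00176, SE 0.09), a call kept in all 6 fits that leave out a library. ACTN1, an alpha-actinin, rose by 0.62 (limma adjusted p = 0.0179, SE 0.10), and the kinase SRC by 0.53 (limma adjusted p = 0.0229, SE 0.09). ACTN4, an alpha-actinin that rose by 0.48 (limma adjusted p = 0.0201, SE 0.08), and RDX (radixin), which fell by 0.36 (limma adjusted p = 0.0439, SE 0.08), passed as well, and both were named after seeing their values. The count of 6 became 1 without DMSO replicate 2, DMSO replicate 3 or CA4 replicate 1, 2 without CA4 replicate 3 and 3 without CA4 replicate 2. ACTN1 was called in 2 of these 6 fits and SRC in 1, without DMSO replicate 1.

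Of 9 receptor genes of these ligands, 8 had a row and 4 were tested. ITGAM, of Mac-1, and CD2 had no read in any library, and ITGB2, the chain shared by LFA-1 and Mac-1, lay between 8.92 and 23.6. SIRPA, the receptor of CD47, had 3114, 2492 and 2325 in DMSO and 4344, 4073 and 4591 in CA4, without overlap. SIRPA rose by 0.72 in log2 (limma adjusted p = 0.0207, SE 0.12), beside -0.02 for CD47 itself. This call was lost without DMSO replicate 2, DMSO replicate 3, CA4 replicate 1 or CA4 replicate 3 (limma adjusted p up to 0.0866).

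**Figure D5:**
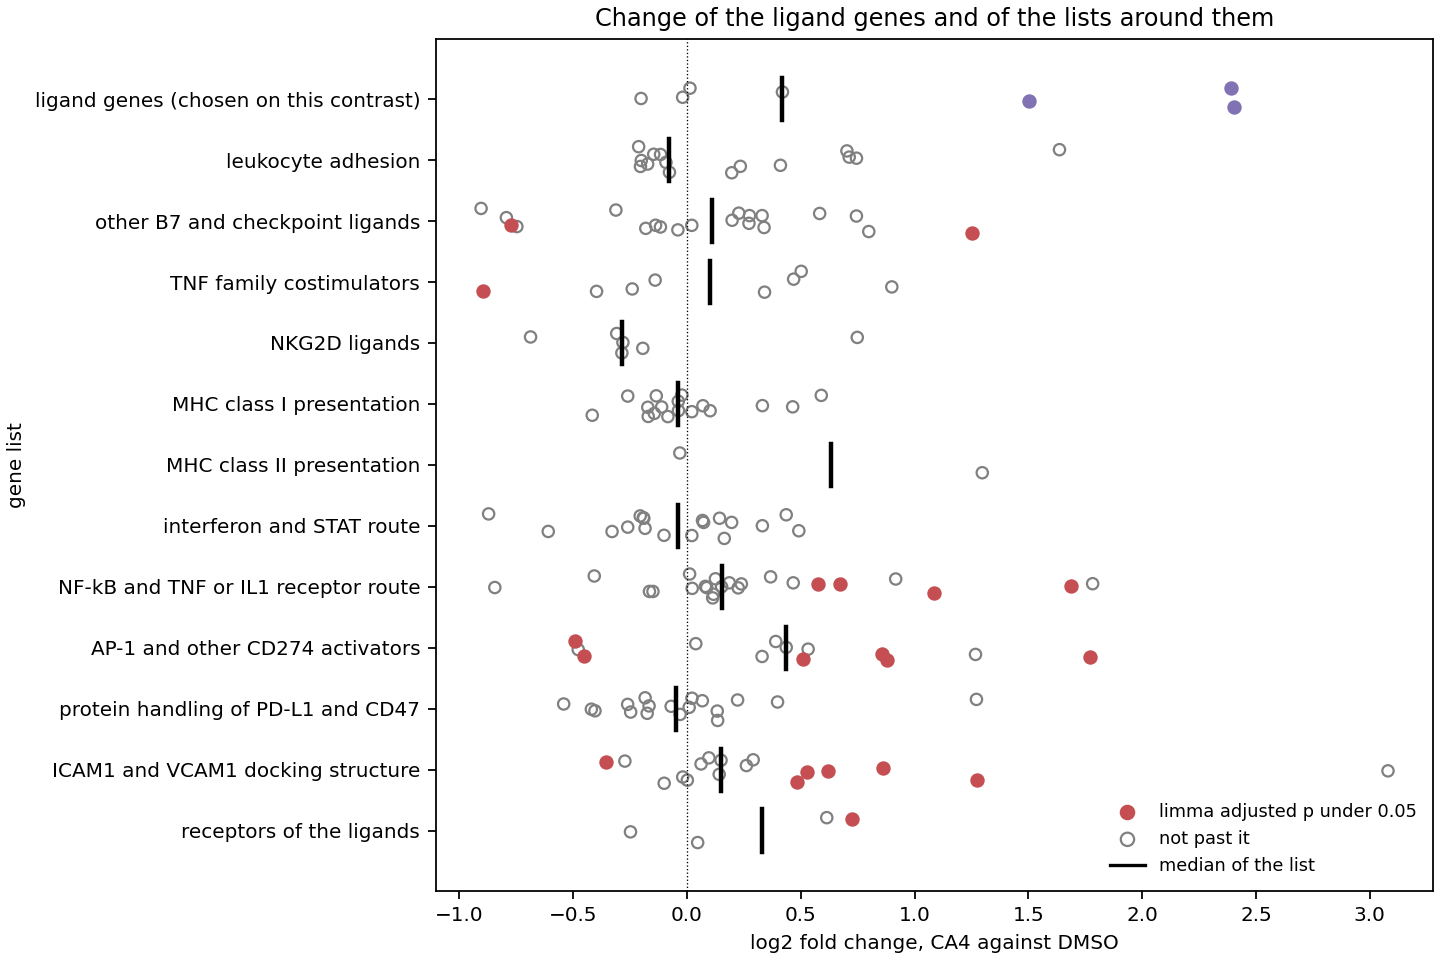
Log2 difference between CA4 and DMSO (horizontal axis) of each tested gene of the 12 lists and of the 7 ligand genes; each point is a gene, filled where its limma adjusted p is under 0.05 and open otherwise, and the black bar is the median of the list. Called were 4 of 23 tested genes in the NF-kB list, 6 of 13 in AP-1 and 6 of 17 in docking, against 4.94% of all tested genes. The B7, TNF family and receptor lists hold 2 of 20, 1 of 8 and 1 of 4. The adhesion, NKG2D, class I, class II, interferon and protein handling lists hold 0 of 15, 6, 17, 2, 18 and 18.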

How the data were processed

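The deposited signal is 1 table of normalized counts, reads divided by a size factor that the authors set for each library. The submitters' processing notes name Trim Galore 0.6.6, FastQC 0.12.1, Salmon 1.8.0, STAR 2.7.9a, DESeq2 1.44.0 and GRCh38, without roles. The annotation release and the use of strand are not given in the sources used here. In each library 100% of values were whole multiples of 1 step (tolerance 0.01), which gave back whole reads, 19524936 to 22538004 per library. Floors (3 reads) cover counting error only.

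Genes averaging 10 or more normalized counts (13928) were fitted on log2(normalized count + 1) with limma 3.58.1 in R 4.3.3 (treatment the only term, variance trend, two-sided, Benjamini-Hochberg adjustment, threshold 0.05). All 7 ligand genes passed the filter. In data simulated for these 13928 genes with 200 changed 2-fold, limma found 63% of the changed genes, and 8.03% of the genes it called had not been changed. Such false calls were 8.70% in edgeR, 26.27% in DESeq2 and 10.95% in limma with the replicate block. The simulated libraries were drawn independently, with no effect shared by same-numbered libraries. These shares therefore cannot rate the replicate block, nor give the share of false calls in the real data. edgeR 4.0.16 and DESeq2 1.42.0 on the recovered reads, other filters, pseudocounts and scalings, and omission of each library were alternatives. blastn 2.17.0 found no stretch of 50 or more bases at 98% identity shared with another gene, except the antisense overlap at ICAM1 and short stretches of up to 62 bases in ICAM1, CD276 and CD47.

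The ligand genes and the lists were chosen with earlier results of these data known. Named genes are the ligands, up to 4 called genes of each list with the largest change (otherwise the 2 with the smallest p), the 6 most like ICAM1 and CD274, and chromosomal neighbours, with exceptions marked. HLA-E and PDCD1 were not analysed here, and some genes that this rule would name are not reported here.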

Additional observations from a re-analysis of the deposited data

How the results depend on the processing

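The log2 differences of ICAM1, CD274 and PDCD1LG2 kept their direction in the 18 alternatives, from 2.08 to 2.93, 2.11 to 2.77 and 1.32 to 1.85 without 1 library, and from 2.26 to 2.43, 2.30 to 2.41 and 1.40 to 1.50 in the others. Their calls were lost without the variance trend, and without single libraries as given above. Without 1 library VCAM1 ran from 0.28 to 0.62, CD276 from -0.01 to 0.05, CD47 from -0.12 to 0.07 and CD58 from -0.32 to -0.07. CD276 moved to -0.10 under quantile normalization and to -0.0883 under scaling to the same total, which shifts the median of all genes by -0.10. Against 688 genes past the threshold (413 higher, 275 lower) there were 103 (51 and 52) without the variance trend, 1613 (907 and 706) in DESeq2, and 802 (279 and 523) under same-total scaling. Leaving out 1 library gave 81 to 994 genes (50 to 605 higher, 31 to 389 lower). The cause was not tested.

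Without 1 library the lists gave 0 to 2 (B7 and checkpoint), 0 to 6 (NF-kB), 0 to 9 (AP-1), 1 to 7 (docking), 0 to 1 (class I, class II, interferon, protein handling and receptors) and 0 (adhesion, TNF family and NKG2D). Without the variance trend B7, TNF family, NF-kB, AP-1 and receptors gave 0 and docking 1. DESeq2 gave 1 for adhesion, NKG2D and class I, 7 for B7 and for NF-kB, 2 for interferon and 3 for protein handling. edgeR gave 1 for B7, 0 for the TNF family and 4 for AP-1. Scaling to the same total gave 4 for B7, 2 for interferon and 1 for protein handling. A mean of 50 or more gave 1 for interferon and for protein handling. Without a filter the TNF family gave 0 and AP-1 3, and quantile normalization gave 0 for the TNF family.

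Deviations of same-numbered libraries correlated at 0.202, 0.159 and 0.0588, all above 0 but not all above 0.1. The labels tie no number to a shared culture, so the libraries were not treated as paired. The standard errors given above are those of this unpaired fit, and would differ if same-numbered libraries were made together. With the replicate block 2397 genes passed (1260 higher, 1137 lower), and the lists gave 1 for adhesion, NKG2D and class I, 7 for B7, 2 for the TNF family, 4 for interferon, 8 for NF-kB, 11 for AP-1 and 6 for protein handling. Genes with no or few reads, such as most class II genes, could not be tested at this depth.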
